A study of Mus musculus with 14 samples.

Results

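The imprinted growth genes described here are 10 mouse genes, of which only the maternal or only the paternal copy is mainly used in embryo and placenta: Igf2, Dlk1, Mest, Peg3 and Peg10, used from the paternal copy, and Phlda2, Cdkn1c, Grb10, Igf2r and H19, used from the maternal copy. They were listed by name and kept where a probe of the deposited value table carried the gene's symbol in the platform annotation. Of the 10 genes, 9 had such a probe and were tested, among 10478 genes tested in all, and H19 was not analysed here. The arrays measured the RNA of both copies together, so the parental class of each gene is background knowledge and not a measurement. RNA came from uterus of C57BL/6 mice labelled as 8 weeks old, and was measured on 14 Illumina BeadChip arrays with 1 colour. The pregnant mice were sampled 12 days after fertilization. Of the arrays, 4 held pregnant uterus after PC61, a monoclonal antibody against CD25 given to deplete regulatory T cells, 5 held pregnant uterus after PBS, the saline control, and 5 held uterus of mice that were not pregnant. The design sets PC61 against PBS, which asks how depletion of regulatory T cells alters the tissue around the fetus, and the non-pregnant arrays show what pregnancy itself adds. Separate animals behind the arrays of a group are not stated in the labels, and the p-values then refer to the spread between arrays alone, which may be technical.

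Imprinted genes carry marks on their DNA, set in the egg or the sperm, that keep a copy silent according to the parent it came from. Many of them act on fetal and placental growth, and in mouse the paternally used genes often promote it while the maternally used genes often restrain it. Igf2, insulin-like growth factor II, drives growth of the mouse placenta and fetus, and Igf2r removes it from the cell surface and sends it for degradation. Phlda2 and Cdkn1c, which lie in the same imprinted region as Igf2, limit the growth of the mouse placenta and the cell cycle. Grb10 is an adaptor protein that dampens insulin receptor signalling.

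To show where these genes start, the promoter windows of the paternally used Igf2, Dlk1 and Mest and of the maternally used Phlda2 are given, from 250 bases before to 50 bases after the start, 5′ to 3′ on the strand of the gene, from RefSeq on GRCm38.p6. The marks that set imprinting can lie far from a start site, as they do for Igf2, Dlk1 and Phlda2 in mouse, so the windows are not given as the seat of that control. Capitals mark each CG, the pair of letters at which mammalian DNA is methylated. The windows lie at chr7:142658755-142659054 on the minus strand for Igf2, chr12:109452573-109452872 on the plus strand for Dlk1, chr6:30737800-30738099 on the plus strand for Mest and chr7:143502475-143502774 on the minus strand for Phlda2. For Igf2 and Mest, which have several annotated starts, the window with the most CG is shown, and no array value tells which start was used.
Igf2: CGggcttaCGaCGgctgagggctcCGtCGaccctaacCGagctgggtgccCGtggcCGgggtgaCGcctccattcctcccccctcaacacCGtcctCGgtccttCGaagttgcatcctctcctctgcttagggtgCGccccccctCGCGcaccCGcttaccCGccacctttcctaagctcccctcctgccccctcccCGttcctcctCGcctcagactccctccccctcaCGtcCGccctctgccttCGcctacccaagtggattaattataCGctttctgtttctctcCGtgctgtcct
Dlk1: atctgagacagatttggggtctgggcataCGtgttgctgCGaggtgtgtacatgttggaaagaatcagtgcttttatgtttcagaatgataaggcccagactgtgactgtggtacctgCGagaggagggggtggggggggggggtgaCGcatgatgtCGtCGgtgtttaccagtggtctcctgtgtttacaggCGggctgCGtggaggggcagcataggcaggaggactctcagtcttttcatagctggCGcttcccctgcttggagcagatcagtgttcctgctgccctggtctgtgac
Mest: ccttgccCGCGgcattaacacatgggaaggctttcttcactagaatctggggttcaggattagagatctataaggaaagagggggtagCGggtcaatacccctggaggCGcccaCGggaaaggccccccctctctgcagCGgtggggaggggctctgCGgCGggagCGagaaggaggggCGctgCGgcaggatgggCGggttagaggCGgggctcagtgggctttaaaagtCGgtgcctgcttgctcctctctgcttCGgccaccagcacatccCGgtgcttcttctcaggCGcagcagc
Phlda2: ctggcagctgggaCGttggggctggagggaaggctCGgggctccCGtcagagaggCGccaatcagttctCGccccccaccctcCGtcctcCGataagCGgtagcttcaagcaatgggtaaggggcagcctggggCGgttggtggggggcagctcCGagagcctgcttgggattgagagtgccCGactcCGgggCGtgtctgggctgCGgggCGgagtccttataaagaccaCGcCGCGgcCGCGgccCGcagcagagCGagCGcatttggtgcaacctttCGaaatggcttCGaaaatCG
The Phlda2 window holds 26 CG, reached by 16.9% of 32851 promoter windows of the same length, and the Dlk1 window 9, reached by 45.8%, beside a median of 7. The Igf2 window shown holds 24 CG, and the other Igf2 windows hold 2, 7 and 14. The Mest window shown holds 17 CG, and the other Mest windows hold 8 and 17. Since the Igf2 and Mest windows were picked for their CG, they are not set against the other promoters. The motif TATAAA, searched on both strands, was found in the Phlda2 window alone among these 4, and in 13.6% of all windows. The methylation of these windows was not measured here.

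The levels below are log2 intensities after background correction and quantile normalization, so a difference of 1 is a doubling of the corrected signal. A probe was kept when its detection p-value, the share of negative control probes at least as bright, was under 0.01 on at least 4 arrays. The arrays detected 17483 to 19580 probes with PC61, 17799 to 19552 with PBS and 16607 to 19729 without pregnancy. Arrays of a group correlated at 0.861 to 0.98 with PC61, at 0.971 to 0.987 with PBS and at 0.939 to 0.989 without pregnancy, over genes of 1 array pair at a time. The median SD of a gene between arrays was 0.407 with PC61, 0.245 with PBS and 0.253 without pregnancy. The PC61 arrays thus differed among themselves more than the arrays of the other groups, and each member is therefore given array by array.

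No member passed the test between PC61 and PBS, but all 9 had a lower mean with PC61, and the difference came from particular arrays. PC61 array 4 stood within 0.54 of the PBS mean on the log2 scale for every member, PC61 arrays 2 and 3 stood low for every member except Igf2r, and PC61 array 1 stood well below PBS for Phlda2 and Peg10 only. By limma's moderated test with Benjamini-Hochberg adjustment, 0 of 9 members and 0 of 10478 genes (0%) had an adjusted p under 0.05, and the lowest adjusted p of any gene was 0.154. This test shares 1 spread over all groups. For Phlda2 the SD was 2.89 with PC61, 0.19 with PBS and 0.07 without pregnancy. Where the PC61 arrays spread most, as here, the SEs, intervals and unadjusted p-values with PC61 understate that spread. At an unadjusted p under 0.05, 6 of 9 members were lower with PC61, against 8.15% of all genes, and 1621 genes passed in either direction. A log2 fold change below 0 was found for 9 of 9 members and for 48.5% of all genes. In whole tissue, fewer cells of a type and less RNA per cell cannot be told apart, here and in the comparisons that follow.

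The gene with the largest difference was Phlda2, which limits the growth of the mouse placenta. Its log2 levels were 8.98, 5.13, 7.12 and 11.92 with PC61, in the order of arrays 1 to 4, against 11.42, 11.51, 11.90, 11.65 and 11.48 with PBS. The groups overlapped through PC61 array 4 alone, which was above every PBS array. The mean was 8.29 ± 2.89 with PC61 (SD, n = 4) and 11.59 ± 0.19 with PBS (SD, n = 5), a log2 fold change of -3.31 with an SE of 0.89 (95% interval -5.22 to -1.39, limma adjusted p = 0.156). Phlda2 was 6.12-fold below the PBS mean on PC61 array 1, 88.4-fold below it on array 2 and 22.3-fold below it on array 3. Its level of 5.13 on array 2 was near the 4.42 to 4.59 of the non-pregnant arrays, which did not detect it. The size of the 88.4-fold difference thus rests partly on background.

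Peg10, a gene derived from a retrotransposon that the mouse placenta needs, had a like order of arrays. It stood at 6.54, 4.38, 5.48 and 9.16 with PC61, against 9.39, 8.26, 8.41, 8.05 and 8.99 with PBS, and its probe was not above background on PC61 array 2. Its log2 fold change was -2.23 with an SE of 0.67 (limma adjusted p = 0.171). On PC61 array 1 these genes stood at -2.61 (Phlda2) and -2.08 (Peg10) relative to the PBS mean on the log2 scale, whereas the other members lay between -0.34 and 1.13.

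Cdkn1c encodes p57, an inhibitor of cyclin-dependent kinases, and was the only member whose PC61 and PBS arrays did not overlap, lower with PC61, as did 0.802% of all genes. Its levels were 14.63, 12.50, 12.32 and 14.71 with PC61, against 14.81, 14.97, 15.01, 14.87 and 14.75 with PBS. The gap was small for PC61 array 4, which lay just under the lowest PBS array. The mean was 13.54 ± 1.30 with PC61 (SD, n = 4) and 14.88 ± 0.11 with PBS (SD, n = 5), a log2 fold change of -1.34 with an SE of 0.45 (limma adjusted p = 0.2).

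Igf2 stood at 14.97, 12.23, 12.87 and 14.74 with PC61, against 14.80, 14.81, 14.87, 14.93 and 14.59 with PBS. PC61 arrays 2 and 3 were 5.93-fold and 3.81-fold below the PBS mean, while arrays 1 and 4 were within 0.17 of it on the log2 scale. The mean was 13.70 ± 1.36 with PC61 (SD, n = 4) and 14.80 ± 0.13 with PBS (SD, n = 5), a log2 fold change of -1.10 with an SE of 0.44 (limma adjusted p = 0.26). The Igf2 probe was among the brightest on the arrays: of 45281 probes it ranked 4, 618, 359 and 29 with PC61 and 7 to 47 with PBS.

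Dlk1, Mest and Peg3 shared the pattern of Igf2. Dlk1, a transmembrane relative of the Notch ligands that is made by many fetal tissues, stood at 14.07, 10.55, 10.85 and 13.81 with PC61, against 13.91, 13.58, 13.77, 13.81 and 13.69 with PBS. Mest, an enzyme-like protein of fetal mesoderm, stood at 12.39, 8.00, 8.05 and 11.53 with PC61, against 11.54, 11.20, 10.86, 11.15 and 11.53 with PBS. Its level on PC61 array 1 was 2.19-fold above the PBS mean and higher than on any PBS array. Peg3, a zinc finger protein, stood at 11.29, 7.91, 8.34 and 11.86 with PC61, against 11.44, 11.33, 11.73, 11.43 and 11.33 with PBS. On PC61 arrays 2 and 3 these genes lay between 7.47-fold below the PBS mean, for Dlk1 on array 3, and 11.6-fold below it, for Peg3 on array 2. The log2 fold changes were -1.43 for Dlk1, -1.26 for Mest and -1.60 for Peg3, with limma adjusted p-values of 0.284, 0.429 and 0.262.

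Grb10 and Igf2r differed least. Grb10 stood at 13.23, 12.16, 12.00 and 12.64 with PC61, against 12.91, 12.65, 13.04, 12.74 and 12.64 with PBS, and its arrays 2 and 3 were 1.55-fold and 1.74-fold below the PBS mean. Igf2r stood at 9.18, 9.72, 9.48 and 9.50 with PC61, against 9.58, 8.91, 9.76, 9.83 and 9.51 with PBS, and the range of its PC61 arrays lay inside the range of its PBS arrays. The log2 fold change was -0.29 for Grb10 (95% interval -0.75 to 0.17, limma adjusted p = 0.525) and -0.05 for Igf2r (95% interval -0.49 to 0.39, limma adjusted p = 0.931).

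**Figure D1:**
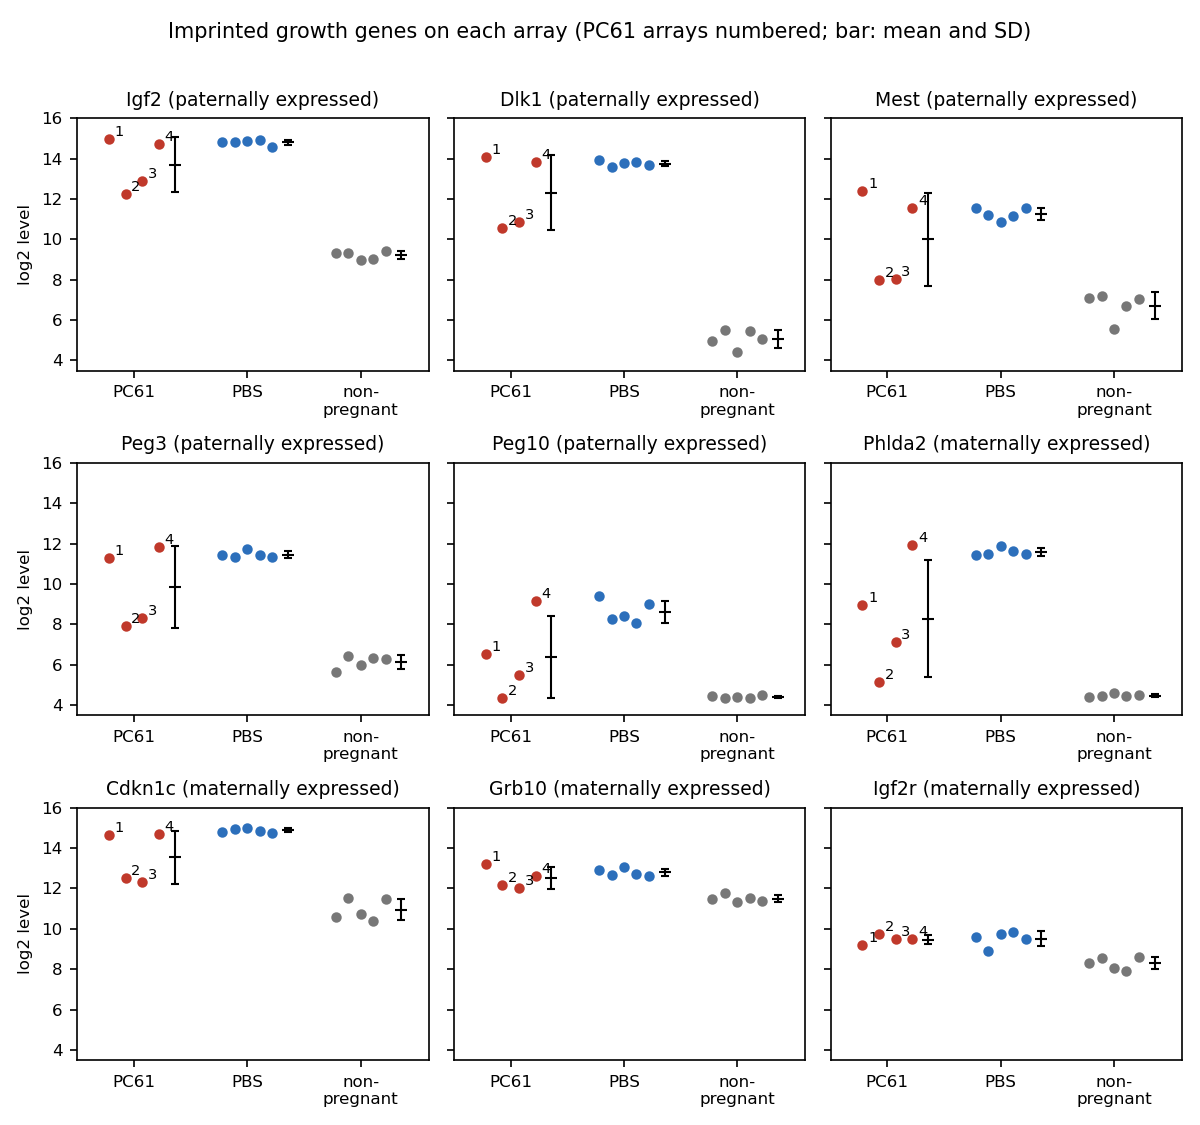
Log2 level (vertical axis) of the 9 members on each array, with PC61, PBS and non-pregnant arrays as points and the group mean with its SD as a bar. PC61 arrays 2 and 3 stand apart from arrays 1 and 4 for Igf2, Dlk1, Mest, Peg3 and Cdkn1c, all pregnant arrays lie near each other for Igf2r, and the non-pregnant arrays lie lowest for most genes.

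A single array decided the number of calls. Without PC61 array 4, the array at PBS level, 6 of 9 members and 1529 genes passed: Phlda2 at -4.52 (limma adjusted p = 8.05e-05), Peg10 at -3.15 (8.43e-05), Peg3 at -2.27 (0.0129), Cdkn1c at -1.73 (0.0151), Igf2 at -1.44 (0.0361) and Dlk1 at -1.93 (0.041). Leaving out that array leaves out the one that stood against the difference, so these values are no independent evidence of it. When any other single array was left out, 0 members passed.

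**Figure D2:**
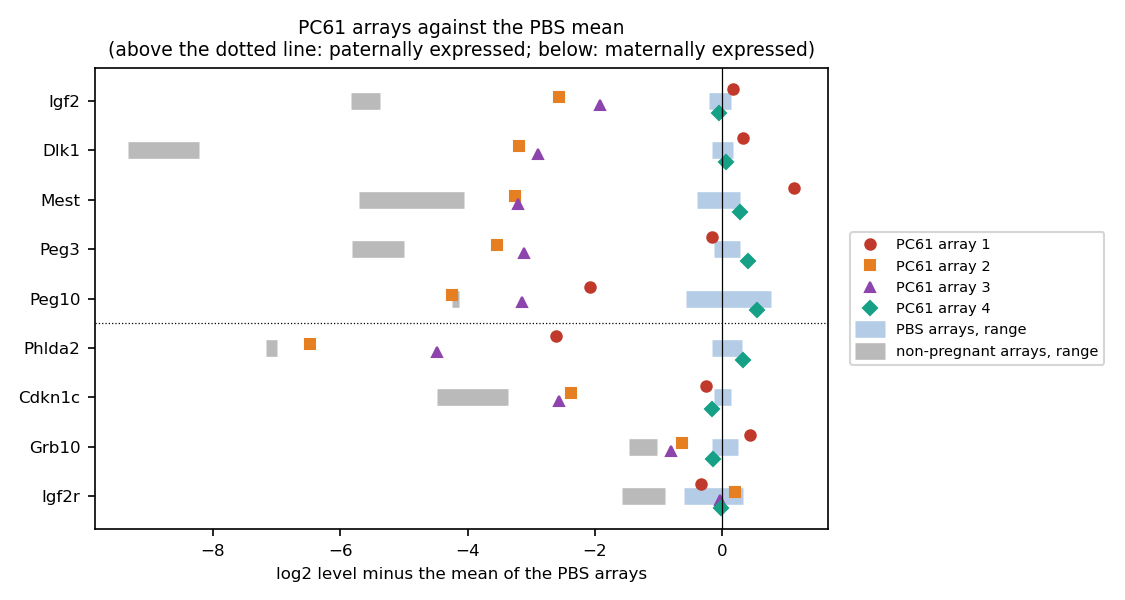
Log2 level of each member on the 4 PC61 arrays minus the mean of the PBS arrays (horizontal axis), with the range of the PBS arrays and of the non-pregnant arrays as bars. PC61 array 1 lies at -2.61 for Phlda2 and -2.08 for Peg10 but between -0.34 and 1.13 for the other members, while PC61 array 4 lies between -0.17 and 0.54 throughout.

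The 7 members with a probe above background on at least 1 non-pregnant array all rose with pregnancy. With PBS against no pregnancy, 7 of these 7 passed limma's test at an adjusted p under 0.05 with a higher level in pregnancy, as did 22.9% of all genes, and the arrays of both groups did not overlap for 7 of 7, as held in that direction for 21.1% of all genes. The increase was at least 2-fold with that adjusted p for 7 of 7 and for 13.5% of all genes. The other 2 members, Phlda2 and Peg10, passed the detection filter only through the pregnant arrays and are left out of these counts. The shares of all genes include genes of that kind. Dlk1 is kept in the counts. With its probe detected on 3 of 5 non-pregnant arrays, it too reached the 4 arrays of the filter only with pregnant arrays. Its calls therefore support nothing further. This comparison and the one above share the PBS arrays.

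Dlk1 stood at 4.94, 5.53, 4.42, 5.47 and 5.05 on the non-pregnant arrays, of which 3 of 5 detected the probe. Its mean was 13.75 ± 0.12 with PBS and 5.08 ± 0.45 without pregnancy (SD, n = 5 each), a log2 fold change of 8.67 with an SE of 0.57 (limma adjusted p = 3.88e-08). The non-pregnant mean lay below 5.18, the mean over these arrays of the lowest signal of a detected probe, so the size of this increase rests partly on background. Igf2 stood at 9.33, 9.32, 8.97, 9.04 and 9.42 without pregnancy, well above background on every array. The increase in Igf2 was 5.58 with an SE of 0.41, or 47.9-fold (limma adjusted p = 1.19e-07). In brightness among 45281 probes, the Igf2 probe ranked 7 to 47 with PBS and 4532 to 5609 without pregnancy.

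Peg3 stood at 5.63, 6.45, 5.98, 6.35 and 6.29 without pregnancy and was 39.7-fold higher with PBS (limma adjusted p = 9.82e-06). Mest stood at 7.07, 7.19, 5.54, 6.72 and 7.04 without pregnancy, detected on 4 of 5 arrays, and was 23.3-fold higher with PBS (limma adjusted p = 0.000157). These are the other paternally used members with signal in both states. Cdkn1c, at 10.57, 11.51, 10.76, 10.39 and 11.48 without pregnancy, was 15.3-fold higher with PBS (limma adjusted p = 6.48e-06).

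Phlda2 and Peg10 were not above background on any of the 5 non-pregnant arrays, so the filter fixed that they differ, their p-values support nothing further, and only a bound can be given. Phlda2 lay between 4.42 and 4.59 there and was at least 85-fold higher with PBS (limma adjusted p = 1.44e-05). Peg10 lay between 4.38 and 4.48 and was at least 10.8-fold higher with PBS (limma adjusted p = 0.000101). The bound sets the PBS mean against the lowest signal among detected probes on the non-pregnant arrays, or the probe's own where that was higher.

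The smallest increases were those of Grb10 and Igf2r, both present in non-pregnant uterus. Grb10 stood at 11.49, 11.77, 11.34, 11.51 and 11.39 without pregnancy and was 2.46-fold higher with PBS (limma adjusted p = 0.000152). Igf2r stood at 8.30, 8.55, 8.08, 7.93 and 8.62 without pregnancy and was 2.33-fold higher with PBS (limma adjusted p = 0.000177). The receptor that clears Igf2 thus increased 2.33-fold on arrays where Igf2 increased 47.9-fold.

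With PC61 against no pregnancy, 7 of the same 7 members were again higher at an adjusted p under 0.05, as were 13.7% of all genes. Dlk1 is again among them, under the limit given above. The groups did not overlap for 7 of 7, and did not overlap in that direction for 9.78% of all genes. The log2 fold change was 4.49 for Igf2 (limma adjusted p = 3.28e-06), 7.24 for Dlk1 (6.4e-07), 3.71 for Peg3 (0.00063), 3.28 for Mest (0.00515) and 2.60 for Cdkn1c (0.000695). Grb10 was higher by 1.01 (0.0031) and Igf2r by 1.17 (0.000744). Of the genes not above background without pregnancy, Phlda2 was at least 8.58-fold higher (0.00566) and Peg10, whose groups overlapped, at least 2.31-fold higher (0.0384). These bounds depended on single arrays: that of Phlda2 was 3.72-fold without PC61 array 4 and 17.9-fold without array 2, and that of Peg10 was 1.22-fold without array 4 and 3.68-fold without array 2. The call of Peg10 was lost when any 1 of the 5 non-pregnant arrays, PC61 array 1 or PC61 array 4 was left out, with adjusted p-values of 0.0614 to 0.0678. This comparison shares its arrays with both others.

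**Figure D3:**
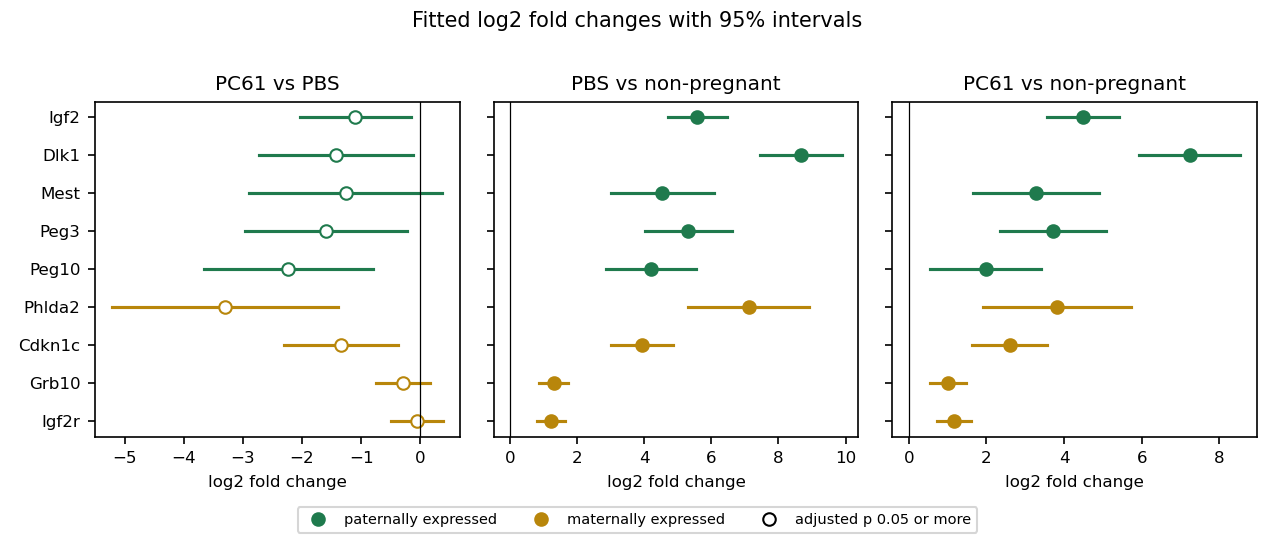
Fitted log2 fold change (horizontal axis) of the 9 members in the 3 comparisons, with 95% intervals and open circles where the adjusted p was 0.05 or more. With PC61 against PBS all 9 circles are open, from -3.31 for Phlda2 to -0.05 for Igf2r, and in both other comparisons all 9 are filled and above 0, with fitted values plotted for Phlda2 and Peg10, whose folds against no pregnancy are lower bounds.

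The position of each PC61 array between both other states can be given as a percentage, with the non-pregnant mean at 0 and the PBS mean at 100 on the log2 scale. Over PC61 arrays 1 to 4, Igf2 stood at 103%, 54%, 65.5% and 99%, and Dlk1 at 104%, 63.1%, 66.5% and 101%. Peg3 stood at 97%, 33.3%, 41.4% and 108%, and Mest at 125%, 28.3%, 29.4% and 106%. Cdkn1c stood at 93.4%, 39.6%, 35% and 95.6%. On arrays 2 and 3, then, these genes lay between the non-pregnant and the PBS means, with Igf2 and Dlk1 nearer to PBS. The non-pregnant mean of Dlk1 was near background, as given above, so its percentages rest partly on background. For Phlda2 and Peg10 the lower end of this scale is background, so no percentage is given. On PC61 array 2 the probe of Phlda2 was above background and that of Peg10 was not. Igf2r stood at 72.3%, 116%, 96.8% and 98.3%.

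Taken by parental class, the 5 paternally used members had a median log2 fold change of -1.43 with PC61 against PBS (-2.23 to -1.10) and the 4 maternally used members one of -0.82 (-3.31 to -0.05), beside 0.01 over all genes. The classes overlapped: the largest and the smallest difference of all members, those of Phlda2 and Igf2r, were both in the maternal class. With PBS against no pregnancy the median was 5.31 for the paternal class (3.43 to 8.67) and 2.62 for the maternal class (1.22 to 6.41), with Phlda2 and Peg10 at their lower bounds, beside -0.03 over all genes. With PC61 against no pregnancy it was 3.71 for the paternal class and 1.88 for the maternal class. These medians are the same with the fitted values of Phlda2 and Peg10. They describe 9 chosen genes and were given no test, and probes differ in their response, so they do not rank the classes.

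On single arrays, the mean of the paternally used members relative to PBS was -0.12, -3.36, -2.86 and 0.25 with PC61, and -0.14 to 0.24 with PBS. The mean of the maternally used members was -0.70, -2.32, -1.97 and -0.01 with PC61, and -0.19 to 0.23 with PBS. The non-pregnant arrays lay at -6.11 to -5.40 for the paternal class and -3.63 to -3.13 for the maternal class. These means include levels at background, those of Phlda2 and Peg10 without pregnancy and of Peg10 on PC61 array 2. The Dlk1 levels without pregnancy were near background, so the size of these means rests partly on background. Both class means were thus low on PC61 arrays 2 and 3. Array 1 was below the PBS range in the maternal class, where Phlda2 stood at -2.61. The low maternal mean came mainly from Phlda2 and Cdkn1c, at -6.47 and -2.38 on array 2 and -4.48 and -2.56 on array 3. On these arrays Grb10 stood at -0.63 and -0.8, and Igf2r at 0.2 and -0.04.

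Within the imprinted region of mouse chromosome 7, 1 protein-coding gene of the RefSeq annotation lies between Cdkn1c and Phlda2, namely Slc22a18, a membrane transporter that is also used from the maternal copy. Its levels were 6.37, 6.64, 7.15 and 9.71 with PC61, against 9.45, 9.40, 9.60, 9.74 and 9.66 with PBS and 7.08, 7.78, 7.44, 7.19 and 7.62 without pregnancy. Slc22a18 was thus low on PC61 arrays 1 to 3, like Phlda2 and unlike Cdkn1c, whose array 1 was near PBS. Its log2 fold change was -2.11 with PC61 against PBS (SE 0.49, limma adjusted p = 0.154), 2.15 with PBS against no pregnancy (SE 0.47, limma adjusted p = 0.00176) and 0.04 with PC61 against no pregnancy (limma adjusted p = 0.96).

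**Figure D4:**
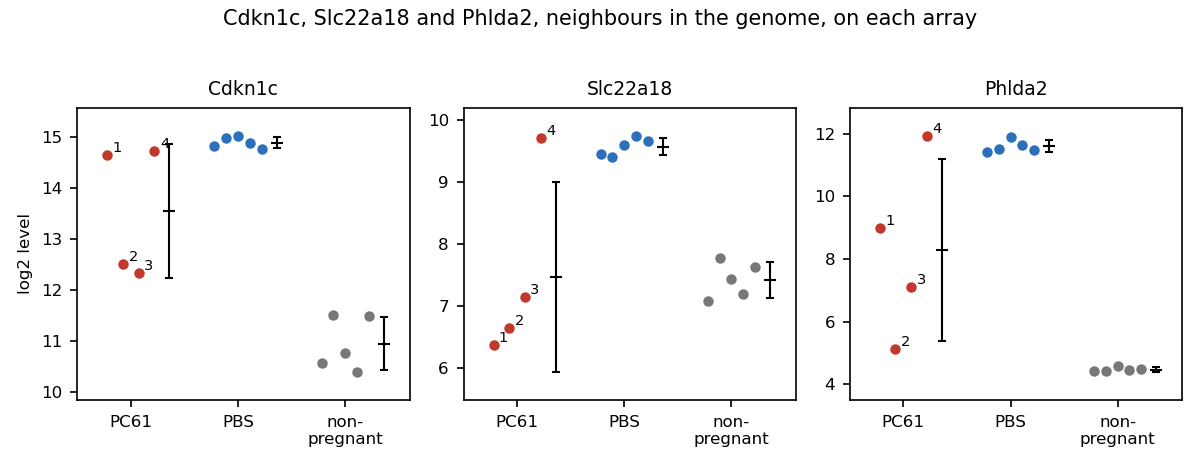
Log2 level (vertical axis, its own scale in each panel) of the neighbouring genes Cdkn1c, Slc22a18 and Phlda2 on each array, with the group mean and SD. On PC61 array 1, Cdkn1c is at 14.63, near its PBS arrays, whereas Slc22a18 at 6.37 and Phlda2 at 8.98 are below theirs.

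Among other imprinted genes, the pattern of the members was found in some and not in others. Of 26 other paternally used genes listed, 12 were measured. With PBS against no pregnancy 9 rose and 1 fell, with a median of 1.61, while 22.9% of all genes rose and 23.7% fell. Of those that rose, Sfmbt2 and Cdh15 were above background on no non-pregnant array, and Nnat, Zdbf2 and Slc38a4 on 1 of 5. These genes reached the filter only with pregnant arrays. Their p-values support nothing further, and the count is not read as a result about the list. Nnat, a small membrane protein of the developing brain, rose by 5.01 (limma adjusted p = 2.36e-09) and Zdbf2, a zinc finger gene, by 2.79 (9.23e-06), each against probes above background on only 1 of 5 non-pregnant arrays, while Rasgrf1, a Ras exchange factor, fell by 3.06 (9.96e-05). With PC61 against PBS 0 of 12 passed, 9 were lower and the median was -0.16, beside 0.01 over all genes.

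Nnat stood at 9.58, 9.38, 8.78 and 9.15 with PC61, against 10.24, 8.97, 10.14, 9.44 and 9.73 with PBS, so its PC61 arrays 2 and 3 were not set apart as those of Igf2 were. Sfmbt2 and Slc38a4, paternally used genes that act in the mouse placenta, were instead low on 3 PC61 arrays. Sfmbt2 stood at 5.46, 4.94, 4.77 and 7.44 with PC61, against 6.77, 6.55, 6.95, 6.66 and 6.77 with PBS (log2 fold change -1.09, limma adjusted p = 0.235). Slc38a4, an amino acid transporter, stood at 4.66, 4.41, 4.87 and 9.52 with PC61, against 7.08, 7.12, 6.86, 6.93 and 9.03 with PBS (-1.54, limma adjusted p = 0.384). Cdh15 stood at 8.27, 4.37, 4.35 and 6.78 with PC61, against 7.32, 6.81, 6.89, 7.33 and 6.53 with PBS (-1.03, limma adjusted p = 0.422). It was low on arrays 2 and 3 as Igf2 was, with its probe above background on 2 of 4 PC61 arrays.

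Of 36 other maternally used genes listed, 19 were measured. With PBS against no pregnancy 5 rose and 4 fell, with a median of 0.02, which is near the 22.9% and 23.7% of all genes. Among the rises, those of Ascl2 and Gatm came from probes above background on no non-pregnant array, which the filter kept only through pregnant arrays. Ascl2, a transcription factor of trophoblast that was not above background without pregnancy, was at least 2.05-fold higher, Dhcr7, an enzyme of cholesterol synthesis, rose by 1.25 (limma adjusted p = 3.35e-05) and Cd81, a tetraspanin of the cell surface, fell by 0.91 (0.000665). Between PC61 and PBS 0 of 19 passed, 8 were lower and the median was 0.02. Ascl2 stood at 4.92, 5.16, 5.09 and 6.57 with PC61, against 6.25, 6.24, 6.30, 6.21 and 6.10 with PBS, low on arrays 1 to 3 as Phlda2 was.

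Around Igf2, 21 of 29 listed genes of the insulin-like growth factor pathway were measured. With PBS against no pregnancy 5 rose and 9 fell, with a median of -0.48, beside the same shares of all genes, and with PC61 against PBS 0 of 21 passed, with a median of -0.04. Igf1, the related growth factor, moved opposite to Igf2. It stood at 8.56, 9.16, 9.18 and 7.04 with PC61, 7.63, 7.42, 7.47, 7.60 and 7.66 with PBS and 11.55, 11.17, 11.62, 11.56 and 11.10 without pregnancy, and fell by 3.85 with PBS against no pregnancy (SE 0.32, limma adjusted p = 4.2e-07). Its PC61 arrays 1 to 3 lay between the PBS and the non-pregnant arrays (PC61 against PBS 0.93, SE 0.34, limma adjusted p = 0.233).

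The RNA-binding proteins Igf2bp1 and Igf2bp3, which bind Igf2 messages, were not above background without pregnancy and were at least 33.9-fold and at least 61.3-fold higher with PBS. Like Phlda2 they passed the detection filter only through the pregnant arrays, and Igfbp2, detected on 2 of 5 non-pregnant arrays, also needed pregnant arrays to pass. All are among the rises counted above, so that count is not read as a result about the pathway. Igf2bp3 stood at 11.09, 9.39, 8.61 and 10.80 with PC61, against 10.86 to 11.45 with PBS, low on arrays 2 and 3 as Igf2 was (PC61 against PBS -1.15, limma adjusted p = 0.197). Igfbp2, a carrier protein of these growth factors, rose by 5.05 with PBS against no pregnancy (limma adjusted p = 3.09e-08), with its probe above background on 2 of 5 non-pregnant arrays, and stood at 10.52, 9.72, 10.08 and 10.23 with PC61, against 10.52, 9.88, 10.28, 9.93 and 10.28 with PBS.

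In the other pathway lists, the counts are again to be read beside the 22.9% of all genes that rose and 23.7% that fell with PBS against no pregnancy. The rises include Ccne2 and Dll1, above background on 2 of 5 non-pregnant arrays, which reached the filter only with pregnant arrays. Of 12 measured cell cycle genes around Cdkn1c (cyclins, inhibitors, Cdk2 and Rb1), 6 rose and 1 fell. Those that rose included Ccne1, a cyclin of entry into DNA synthesis, by 2.02 (limma adjusted p = 0.00173), and Rb1 by 0.8 (0.0123). Of 13 measured genes of imprint maintenance, 5 rose and 2 fell, with Ezh2, a histone methyltransferase, higher by 1.90 (2.6e-05) and Dnmt1, which copies DNA methylation, by 1.26 (0.00225). Of 9 measured Notch pathway genes around Dlk1 (receptors, ligands, Hes and Hey genes), 2 rose and 0 fell. That share of rises is near that of all genes. Dll1, a ligand, was higher by 0.93 (0.0018) against a probe above background on 2 of 5 non-pregnant arrays. Hey1 was the other, higher by 0.72 (limma adjusted p = 0.0224). Between PC61 and PBS 0 genes of these lists passed, as 0 of all genes did, and the medians were -0.22, -0.32 and 0.06. Dnmt3b, which sets new DNA methylation, had the lowest adjusted p among them in that comparison, with -0.95 (SE 0.27, limma adjusted p = 0.156).

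The labelled tissue was checked against cell type markers, whose lists differed from each other in their order over the PC61 arrays. Trophoblast and placenta markers (21 of 28 measured, 16 of them not above background on any non-pregnant array) had a mean relative to PBS of -4.73, -4.25, -2.47 and 0.45 with PC61, -0.18 to 0.16 with PBS and -5.09 to -4.85 without pregnancy. Markers of embryonic blood and yolk sac (14 of 18, 8 of them not above background without pregnancy) stood at -0.54, -3.25, -2.53 and 0.17, against -0.09 to 0.20 with PBS and -6.49 to -6.16 without pregnancy. The pregnant samples thus held RNA of markers of the conceptus, and the labels do not say whether implantation sites were taken whole. On PC61 array 1, Phlda2 at -2.61 and Peg10 at -2.08 lay between the means of these lists, and the other members, at -0.34 to 1.13, lay above both.

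Markers of embryonic striated muscle and skeleton (11 of 12) stood at 0.52, -2.47, -2.56 and 0.26 with PC61, against -0.15 to 0.18 with PBS and -2.96 to -2.53 without pregnancy. Those of the embryonic nervous system (8 of 12) stood at 0.26, 0.07, -0.67 and 0.22, against -0.23 to 0.18 with PBS and -3.48 to -2.73 without pregnancy. Among the mother's own tissues, smooth muscle markers (11 of 12) stood at 1.32, 1.86, 1.65 and -0.76, against -0.22 to 0.30 with PBS and 0.93 to 1.59 without pregnancy, and decidua markers (10 of 14) at -1.39, 0.49, 0.58 and -0.11, against -0.21 to 0.38 with PBS and -1.10 to -0.29 without pregnancy. Endometrial epithelium markers (8 of 11) stood at -0.44, 0.93, 0.57 and -0.06, against -0.25 to 0.34 with PBS and 1.92 to 3.15 without pregnancy. Within the decidua list, Prl8a2 stood at -7.68 on PC61 array 1, where the others lay between -2.38 and 0.91, and at -9.22 to -8.48 without pregnancy. The part of the shifts of all these lists in the members' values was not tested. Regulatory T cell markers (5 of 10 measured) stood at -1.39, 0.57, 0.76 and -0.05 with PC61, against -0.09 to 0.17 with PBS and -0.74 to -0.52 without pregnancy. Much of this mean came from Tnfrsf9, at -5.54 on PC61 array 1 and -5.17 to -4.58 without pregnancy. On array 1 the others lay between -0.8 and 0.46. Without pregnancy Tnfrsf18 and Itgae lay above the PBS mean, Ctla4 below it and Foxp3 near it. Between PC61 and PBS 0 of these 5 passed: Foxp3, their defining factor, had a log2 fold change of -0.06, Ctla4 of 0.44, Tnfrsf18 of 0.64, Itgae of 0.42 and Tnfrsf9 of -1.57 (limma adjusted p-values 0.387 to 0.886). Of the 5, only Foxp3 was above background on every array.

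**Figure D5:**
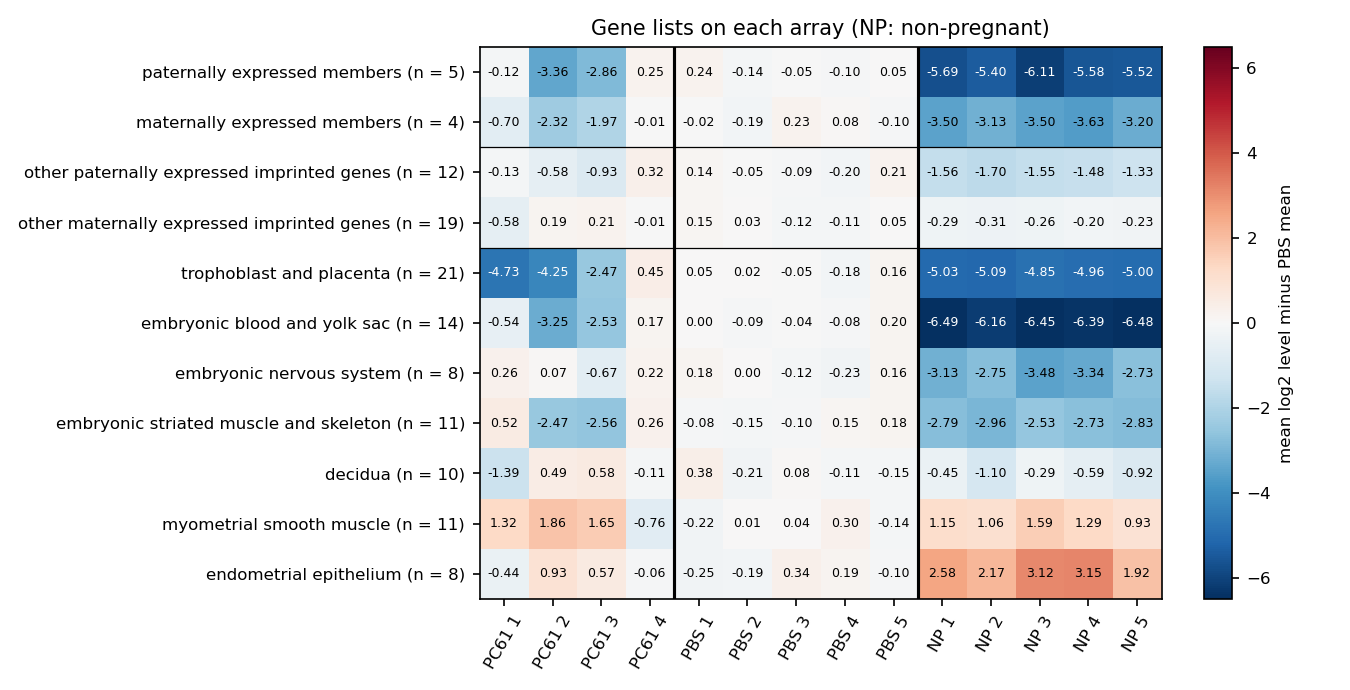
Mean log2 level of each gene list on each array minus its mean over the PBS arrays (colour and number), with arrays as columns and lists as lines. The paternally used members are at -3.36 and -2.86 on PC61 arrays 2 and 3 and at -0.12 on array 1, where trophoblast and placenta markers are at -4.73.

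The genes most like Igf2 over the 14 arrays, by the root mean square difference of log2 levels relative to the PBS mean, were Igf2bp1 (0.46), Kng1 (0.47), Amn (0.49), the member Peg3 (0.52) and Kel (0.54). Those most like Phlda2 were Apoa2 (0.66), Spp2 (0.69), the placental gene Plac1 (0.71), Apoa4 (0.77) and Slc13a4 (0.87). The lists share no gene. The measure was not scaled, so it also depends on the size of the difference from the non-pregnant arrays, where Phlda2 was at background. With PBS that difference was 5.58 for Igf2, 8.67 for Dlk1 and a fitted 7.12 for Phlda2. Dlk1, which shared the order of Igf2 over the PC61 arrays, is not listed. The lack of a shared gene is therefore not read as a difference in pattern. All points of such a comparison share the same arrays, so it is a description.

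Several members had more than 1 probe, and a level was never set against that of another probe. With PC61 against PBS the log2 fold changes were -1.26, -1.33 and -1.25 for the 3 probes of Mest, -1.43 and -1.65 for the 2 of Dlk1, and -1.60 and -1.52 for the 2 of Peg3. The 3 probes of Grb10 differed more: with PBS against no pregnancy they gave 1.30 (limma adjusted p = 0.000158 over 20967 probes), 0.70 (0.0234) and 0.53 (0.052), and with PC61 against no pregnancy 1.01 (0.00334), 0.42 (0.237) and 0.13 (0.7). The rise of Grb10 with PC61 against no pregnancy was therefore called from 1 of its 3 probes.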

How the data were processed

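Uterus RNA of 3 groups was measured on 14 arrays of 45281 probes. The deposited scanner table holds summarised probe intensities with no log scale, and a detection p-value per probe, per the file headers. The deposited value table, 16948 probes, holds log2 values: its rank correlation with the intensities of the same array was 1 after rounding and its column medians were 7.96 to 7.99, so no centring on a gene or inverted direction was seen, while its software, normalization and choice of probes, with any earlier scanner correction, were not given in the sources used. Slide and scan batches were not given either.

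The authors' intensities were background-corrected, quantile-normalized and log2-transformed with neqc of limma 3.58.1 in R 4.3.3, with an offset of 16 and negative controls inferred from the detection p-values. The filter kept 20967 probes, those detected at p under 0.01 on 4 arrays or more. Symbols came from the platform annotation: 15469 matrix probes had 1 symbol, 5 had several and 1474 had none, and of the named probes 15463 matched RefSeq by gene number, which changed 0 symbols. The probe with the highest mean stood for a gene (10478 genes, 3547 with several probes). limma was fitted over all genes with 1 mean per group and a shared spread (11 residual and 3.36 prior degrees of freedom), two-sided, with Benjamini-Hochberg adjustment and calls at an adjusted p under 0.05. The fit was tested on simulated data in which each gene had 1 spread in all groups. A true log2 fall of 1 was called for 28 of 50 genes and a fall of 2 for 46 of 50, with 9 false calls. The PC61 arrays spread more than the others, so this does not show how the test behaves on them. Depth has no counterpart on arrays, and the number of arrays limits the precision.

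The members and gene lists were chosen with earlier results of these data known. Named were all members, up to 4 measured genes per list and comparison with the lowest p, and the 5 genes most like Igf2 and Phlda2. Marker genes and neighbours singled out beyond that were chosen after their values were seen. Alternatives were other normalizations, the deposited log2 values, other filters and probes, array weights, the replicate number as a block, the 2 compared groups alone, and leaving out each array.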

Additional observations from a re-analysis of the deposited data

Results flagged for a closer look

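Among the members, 2 of 27 sets of arrays, each the values of 1 gene in 1 group, held an array apart from the others by Dixon's test, and chance gives about 1 in 20. Peg3 stood at 11.73 on PBS array 3, where the nearest of the other PBS arrays was at 11.44 and the lowest at 11.33 (gap over range 0.73, critical value 0.71). Mest stood at 5.54 on non-pregnant array 3, where the nearest of the others was at 6.72 and the highest at 7.19 (0.713, critical value 0.71). Neither array changes a call of its gene when it is left out. In the PC61 group, where 2 arrays were low and 2 high for several members, no array was set apart by this test.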

How the results depend on the processing

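With PBS against no pregnancy, all 203 recomputed values of members kept their direction and their call, and with PC61 against no pregnancy 192 did and 11 lost the call, all of them Peg10 (adjusted p up to 0.201). With PC61 against PBS 183 kept both, 16 became significant and 4 turned, all of Igf2r, which was 0.13 with array weights, 0.01 without PBS array 3, 0.03 without PBS array 4 and 0.05 without PC61 array 1 (range -0.20 to 0.05 when each array was left out). The number of members called with PC61 against PBS was 2 (Phlda2 and Peg10, of 303 genes) with median scaling, which moved the median of all genes to -0.30 (0.16 with PBS and -0.15 with PC61 against no pregnancy), and 8 (of 4027 genes) with array weights, which gave PC61 arrays 1 to 4 weights of 0.166, 2.11, 1.39 and 0.173 and so rest mainly on arrays 2 and 3. Leaving out each array gave 0 to 6 members called in that comparison, 9 to 9 with PBS against no pregnancy and 8 to 9 with PC61 against no pregnancy. The counts against no pregnancy, and the recomputed values above, include Phlda2, Peg10 and Dlk1, which reached the filter only with pregnant arrays. They add no support for these genes. With detection required on all 14 arrays, only 5 members were tested, and 5 passed in both comparisons with the non-pregnant arrays. The paternal minus maternal median with PBS against no pregnancy, 2.69, was 4.15 under that filter, 1.49 with quantile normalization without background correction, 1.44 in the deposited log2 values, and 2.61 to 2.81 when each array was left out. With PC61 against PBS, -0.61, it was -1.45 with array weights, -1.06 with detection on all 14 arrays, -0.39 without background correction, -0.35 in the deposited values, and -0.94 to -0.25 when each array was left out. With PC61 against no pregnancy, 1.83, it was 0.71 with array weights, 2.93 with detection on all 14 arrays, 1.10 both without background correction and in the deposited values, and 1.36 to 2.33 when each array was left out.

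Same-numbered arrays did not deviate together in every pair: their correlations were -0.17 to 0.09 between PC61 and PBS, 0 to 0.33 between PBS and no pregnancy and -0.05 to 0.14 between PC61 and no pregnancy, and an array correlated best with its own number for 1 of 4, 3 of 5 and 2 of 4. With the replicate number as a block, 0 members were called with PC61 against PBS and 9 in each of the other comparisons (0, 4764 and 2619 genes), and the block changed no member's call. Those 9 again include Phlda2, Peg10 and Dlk1.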
